A study of Mus musculus with 2 samples.

Results

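Genomic imprinting is the silencing of a gene on the chromosome inherited from 1 parent, and 48 autosomal imprinted genes were followed in mouse retina at postnatal day 15. They were chosen by name from a list of genes known to be imprinted, and their rows were taken from a table of 30608 transcripts of 23356 gene symbols. All 48 were in that table, in 93 transcript rows. They fell into 19 imprinted loci on 10 chromosomes. The mutant group was 1 library from retinas with loxP-flanked alleles of Dnmt1, Dnmt3a and Dnmt3b on both chromosomes and the Rx-Cre transgene, in which Cre recombinase is made under control of sequence from the retinal transcription factor gene Rx. The control group was 1 library with the same 3 floxed genes and no Cre, from pups of the same age. The strain label reads C57BL/7 for the mutant and C57BL/6 for the control, and the sources used here do not say how many animals each library holds. With 1 library per group there was no replicate check and no test between genotypes: every difference given here is a difference between these libraries.

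Imprinted genes lie in clusters, and each cluster is governed by a stretch of DNA that carries methylation on the maternal or the paternal copy only. That methylation is set in the germ line and kept through cell division, mainly by the maintenance methyltransferase Dnmt1. Where the methylated stretch covers a promoter, as at Mest, Peg3 or Snrpn, the methylated maternal copy is silent and the paternal copy is transcribed. At other loci the link is indirect: an insulator between H19 and Igf2, or a long non-coding RNA such as Airn, decides which neighbours are transcribed from which copy. RNA abundance summed over both chromosomes, as measured here, does not show which copy a transcript came from.

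The promoters of 5 paternally expressed genes are shown. Each gene is listed as having its promoter or first intron in such a germline-methylated stretch. These genes had the 5 largest ratios, either way, among the measured genes of that kind. Whether each printed window lies in the methylated stretch was not tested. Each is the 250 bases before a transcription start, 5′ to 3′ on the gene's own strand, from RefSeq on GRCm38.p6, with every CpG, the dinucleotide that carries the methylation, in capitals. Mest has an upstream start (chr6:30733256-30733505, plus strand) and a downstream start (chr6:30737800-30738049, plus strand). The other windows are Nnat (chr2:157559828-157560077, plus strand), Peg3 (chr7:6730420-6730669, minus strand), Usp29 (chr7:6730333-6730582, plus strand) and Nap1l5 (chr6:58907127-58907376, minus strand).
Mest downstream start: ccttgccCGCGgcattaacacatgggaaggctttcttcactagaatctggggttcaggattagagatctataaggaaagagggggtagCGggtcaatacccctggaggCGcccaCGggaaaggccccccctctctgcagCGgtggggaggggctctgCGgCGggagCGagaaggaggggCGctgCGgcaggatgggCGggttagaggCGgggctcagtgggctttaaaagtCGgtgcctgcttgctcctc
Mest upstream start: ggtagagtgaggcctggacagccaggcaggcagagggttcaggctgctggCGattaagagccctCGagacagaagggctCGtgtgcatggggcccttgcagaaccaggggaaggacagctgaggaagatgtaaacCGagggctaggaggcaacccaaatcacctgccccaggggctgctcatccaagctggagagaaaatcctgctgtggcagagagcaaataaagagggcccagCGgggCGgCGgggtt
Nnat: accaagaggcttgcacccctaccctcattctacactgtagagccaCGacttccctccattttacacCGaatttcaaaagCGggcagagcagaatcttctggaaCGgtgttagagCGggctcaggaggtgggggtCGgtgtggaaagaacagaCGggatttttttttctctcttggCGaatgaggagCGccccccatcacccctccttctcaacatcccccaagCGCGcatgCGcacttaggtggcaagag
Peg3: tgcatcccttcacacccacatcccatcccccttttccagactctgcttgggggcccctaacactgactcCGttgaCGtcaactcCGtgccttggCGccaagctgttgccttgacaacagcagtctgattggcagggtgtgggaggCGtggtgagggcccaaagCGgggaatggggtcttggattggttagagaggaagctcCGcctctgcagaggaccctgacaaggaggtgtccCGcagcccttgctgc
Usp29: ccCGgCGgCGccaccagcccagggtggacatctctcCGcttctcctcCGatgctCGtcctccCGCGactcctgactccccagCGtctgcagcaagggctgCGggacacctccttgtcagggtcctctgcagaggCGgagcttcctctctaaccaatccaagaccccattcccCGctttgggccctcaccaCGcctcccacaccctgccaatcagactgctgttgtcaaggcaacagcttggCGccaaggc
Nap1l5: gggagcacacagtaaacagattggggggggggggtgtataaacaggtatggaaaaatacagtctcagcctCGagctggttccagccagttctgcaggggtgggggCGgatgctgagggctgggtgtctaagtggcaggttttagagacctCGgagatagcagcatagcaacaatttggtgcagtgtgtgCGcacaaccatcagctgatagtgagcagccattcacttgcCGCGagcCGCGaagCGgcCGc

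The downstream Mest window held 14 CpG and the upstream window 7. The Nnat window held 12 CpG, the Peg3 window 8, the Usp29 window 14 and the Nap1l5 window 10. Peg3 and Usp29 are transcribed in opposite directions from start sites so close that their windows share 163 bases, read from opposite strands. The windows were searched on both strands for TGCCGC, the hexamer that the imprint-protecting zinc finger protein Zfp57 binds when it is methylated; the motif contains a CpG, so its matches are also in the CpG counts. The downstream Mest window held 2 matches, the Nap1l5 window 1 and the other 4 windows none. Of the 48 genes, 39 had a promoter in the RefSeq table, and for each gene the window with the most CpG was taken. Their median was 12 CpG, against 6 over all 27025 genes with a promoter. Among measured genes the order was the other way, with a median of 14 CpG for the imprinted genes and 17 for all. The hexamer was in the chosen window of 20.5% of these 39 genes (8 genes), against 9.15% of all genes with a promoter. The shares among measured genes were 20.7% of the imprinted genes and 15.4% of all. Windows not chosen were left out of these shares: that of Zdbf2 at another start held 3 matches. A match is a description of the letters only. H19, Peg10, Rtl1, Cdkn1c, Impact, Peg13, Trappc9, Kcnk9 and Sgce had no promoter sequence matched.

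Expression was measured as FPKM, a fragment count scaled by transcript length and by library depth, and summed over the transcripts of a gene. Genes that reached 1 FPKM in either library are called measured. Log2 ratios are of mutant over control after adding 1 FPKM to each, which pulls the ratios of low genes towards 0; plain folds and percentages use no addition. Judged by the steps between the lowest values, 1 FPKM stood for about 56.3 fragments per kb in the mutant library and 48.3 in the control library, and bracketed ranges are 95% intervals from those fragments that cover counting error only. Of the genes Cre was meant to remove, Dnmt1 had 11.6 FPKM in the mutant library against 21.7 in the control library (53.5%), Dnmt3a had 56.0 against 87.4 (64.1%) and Dnmt3b had 0.827 against 1.03. All 3 were lower and none was absent, with Dnmt3b at 80.4% of its control level (65.2 to 99.1). A whole-transcript FPKM also counts exons that Cre leaves in place, and cells outside the Rx lineage keep intact alleles. The part of either in the remaining RNA was not tested. The libraries carried strong rod photoreceptor signal, with summed FPKM of the 3 rod markers used at 4470 in the mutant library and 5291 in the control library.

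Several lists of cell type markers differed between the libraries. All 6 pigment epithelium markers were 2-fold lower, with summed FPKM of 4.85 in the mutant library and 119 in the control library and none at 0. All 4 measured lens markers were lower, with a sum over 6 of 0.968 in the mutant library and 137 in the control library, and 1 of the 6, Lim2, at 0 in the mutant library. All 3 cone markers were lower (129 and 350 summed FPKM), and 4 of 5 markers of microglia and macrophages were 2-fold higher (54.5 and 14.8). The other microglia marker, P2ry12, was higher by less, with 3.14 FPKM in the mutant library and 1.86 in the control library. None of the 4 ganglion cell markers passed the 2-fold rule, with sums of 294 in the mutant library and 427 in the control library, and all 4 were below 0, from -0.60 to -0.51. The 5 mesenchymal markers used summed to 13.6 in the mutant library and 10.1 in the control library, and the 5 of endothelium and pericytes to 88.4 and 98.6. Markers of bipolar cells summed to 752 in the mutant library and 525 in the control library, those of amacrine cells to 181 and 224, and those of Mueller glia to 1044 and 1360. The Mueller glia markers went both ways, with a median log2 ratio of -0.07: Glul had 561 FPKM in the mutant library and 952 in the control library, while Slc1a3 had 122 and 75.6. Horizontal cell markers summed to 26.0 in the mutant library and 50.1 in the control library, with 1 of 3 past the 2-fold rule. The astrocyte marker Gfap, which stressed Mueller glia also express, had 25.6 FPKM in the mutant library and 7.72 in the control library. The part of these differences in the ratios of Mest, H19, Igf2, Kcnk9, Meg3, Peg3 and the other imprinted genes given here was not tested. In RNA from whole tissue, fewer cells of a type and less RNA per cell cannot be told apart. Nor can either be told apart from unlike amounts of lens or pigment epithelium taken along at dissection.

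Few imprinted genes passed a size rule. Of 37 measured genes, Mest and H19 were at least 2-fold higher in the mutant library on the log2 scale with 1 FPKM added, beside 1.84% of all 13280 measured genes. None was 2-fold lower, beside 0.648% of all genes. At 1.5-fold the same 2 genes were higher, beside 4.29% of all genes, and 4 were lower (Kcnk9, Meg3, Peg3 and Zdbf2), beside 3.04%. The median log2 ratio of the 37 was -0.11, against 0 over all measured genes, whose quartiles were -0.16 and 0.15. The quartiles of the 37 were -0.33 and 0.06, so they were spread more widely and to the lower side: 18 lay below the lower quartile of all genes and 5 above the upper one. In all, 24 of the 37 had a negative ratio (64.9%), against 50% of all measured genes. Summed over the 48 genes, FPKM was 1887 in the mutant library and 1976 in the control library. Gnas alone made up 32.7% of that sum in the mutant library and 32.9% in the control library.

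**Figure D1:**
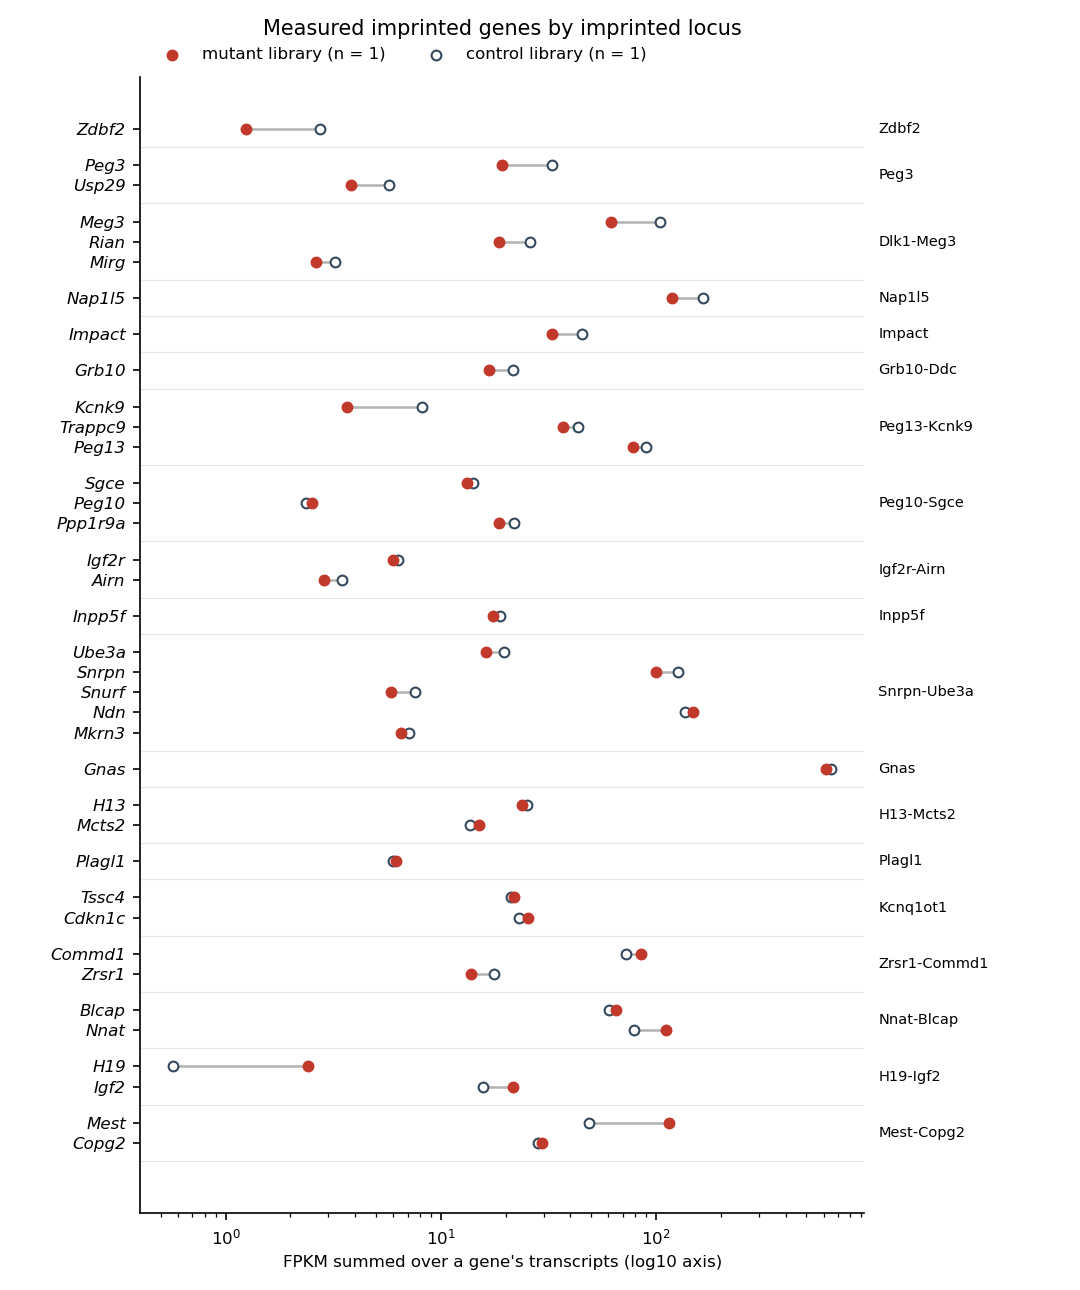
FPKM of the 37 measured imprinted genes in the mutant library (filled points) and the control library (open points), on a log10 axis, grouped by imprinted locus and ordered by the log2 ratio of the locus sum, lowest at the top. Mest stands at 115 FPKM in the mutant library against 48.6 in the control library and H19 at 2.41 against 0.571, while Kcnk9, Zdbf2, Peg3 and Meg3 have the widest gaps in the other direction.

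Mest, a paternally expressed gene of the alpha/beta hydrolase fold family (chromosome 6, 30723547 to 30748465, plus strand, GRCm38), had 115 FPKM in the mutant library against 48.6 in the control library. That is 2.36-fold higher (2.29 to 2.43), with a log2 ratio of 1.22. Among measured imprinted genes it had the largest log2 ratio with 1 FPKM added, while H19, at a far lower level, had the larger plain fold. The difference lay in the transcripts from the downstream start, whose promoter is printed above with 14 CpG. NM_008590 had 86.5 FPKM in the mutant library against 35.9 in the control library, and NM_001252292, which starts 3 bases further on, had 28.1 against 12.5. NM_001252293, from the upstream start, was listed at 0 in the mutant library against 0.235 in the control library. The share of Mest FPKM held by each transcript therefore moved by at most 1.68 percentage points. Copg2, a coat protein subunit gene on the other strand whose last exons overlap those of Mest by 912 bases, had 29.4 FPKM in the mutant library against 28.3 in the control library. The strand setting of the counting is not stated in the labels or file headers, so fragments in the overlap could be assigned to either gene. Copg2 stood at 1.04 times its control level. The 6 nearest measured genes outside the locus had log2 ratios from -0.70 to 0.16, none as high as Mest.

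In the H19-Igf2 locus both genes were higher, although they are expressed from opposite parental copies. H19, a maternally expressed long non-coding RNA (minus strand of chromosome 7, 142575529 to 142578143), had 2.41 FPKM in the mutant library against 0.571 in the control library. Its level was low in both, and the 4.22-fold difference (3.18 to 5.68) gave a log2 ratio of 1.12. Igf2, the paternally expressed growth factor gene next to it, had 21.6 FPKM in the mutant library against 15.7 in the control library (1.38-fold, 1.32 to 1.44). The 3 Igf2 transcripts differ in their first exons and went the same way to different degrees. NM_001122736, from the most upstream of their starts, had 3.67 FPKM in the mutant library against 1.21 in the control library. NM_001122737 had 8.40 against 6.19, and NM_010514 had 9.52 against 8.26. The locus sum was 24.0 FPKM in the mutant library against 16.2 in the control library, 148% of it. The receptor gene Igf2r, whose product clears Igf2 from the cell surface and which lies on chromosome 17, had 5.98 FPKM in the mutant library against 6.30 in the control library. Airn, the paternally expressed non-coding RNA antisense to Igf2r, had 2.86 against 3.47.

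Nnat had the third highest log2 ratio, with 1 FPKM added, of the 37 measured genes. It encodes neuronatin, a small membrane protein of the endoplasmic reticulum, and lies within an intron of Blcap on chromosome 2 (157560078 to 157562522, plus strand). Nnat had 112 FPKM in the mutant library against 79.4 in the control library (1.41-fold, 1.35 to 1.46), short of either size rule. Its transcript NM_010923 had 54.4 FPKM in the mutant library against 32.3 in the control library, and NM_180960 had 57.4 against 47.1. Both were higher, and their start sites lie close together. Blcap, the host gene, had 65.0 FPKM in the mutant library against 60.2 in the control library, so that Nnat stood at 1.72 times its host in the mutant library and 1.32 times in the control library.

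**Figure D2:**
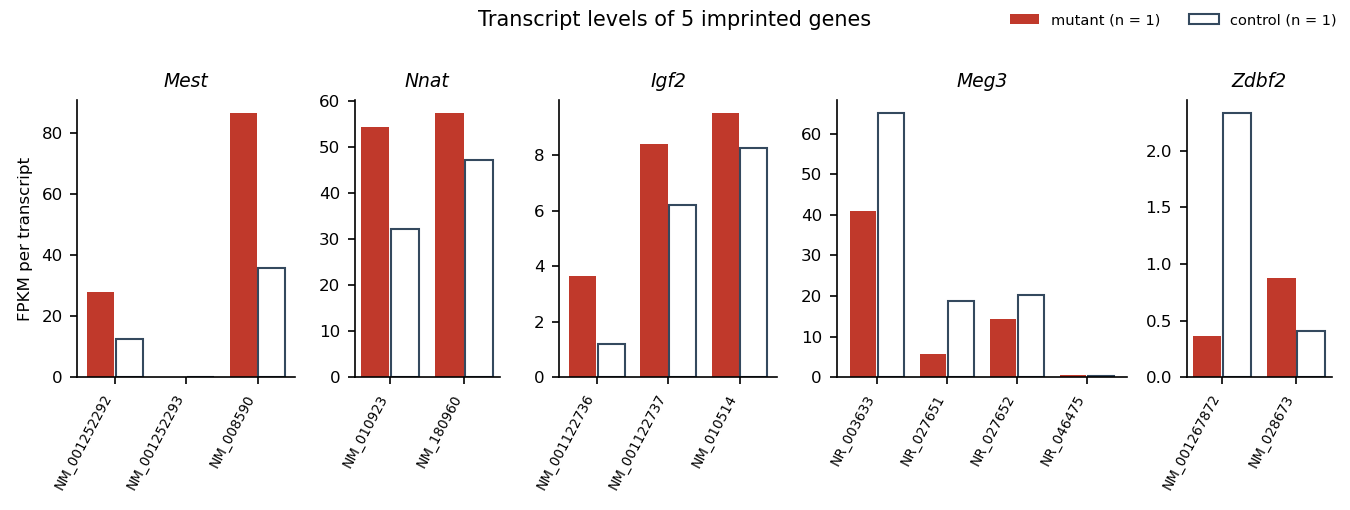
FPKM of each transcript of 5 imprinted genes in the mutant library (filled bars) and the control library (open bars); each panel has its own linear axis from 0. The 2 Mest transcripts of the downstream start are higher in the mutant library (86.5 against 35.9 and 28.1 against 12.5 FPKM), 3 of 4 Meg3 transcripts are lower, and the 2 Zdbf2 transcripts go opposite ways.

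The lower genes lay at other loci. Kcnk9, a maternally expressed leak potassium channel gene (minus strand of chromosome 15, 72501089 to 72546340), had 3.68 FPKM in the mutant library against 8.16 in the control library. That is 45.1% of the control level (43.0 to 47.3), and its log2 ratio of -0.97 fell just short of the 2-fold rule because of the added 1 FPKM. The other genes of the locus differed less. Peg13, a paternally expressed non-coding RNA inside an intron of Trappc9, had 78.5 FPKM in the mutant library against 89.5 in the control library. Trappc9, which encodes a subunit of a vesicle tethering complex, had 36.9 against 43.2, so the ratio of Peg13 to its host was 2.13 in the mutant library and 2.07 in the control library.

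At the Dlk1-Meg3 locus on chromosome 12 the 3 maternally expressed non-coding RNAs all had negative ratios. Meg3 (109541001 to 109571726, plus strand) had 61.9 FPKM in the mutant library against 104 in the control library, 59.3% of it, with a log2 ratio of -0.74. Rian, which hosts small nucleolar RNAs, had 18.6 FPKM in the mutant library against 26.0 in the control library. Mirg, a host of microRNAs, had 2.63 against 3.21, 81.9% of it, with a counting interval (66.0 to 101.7) that includes no difference. The log2 ratios were -0.74 at Meg3, -0.47 at Rian and -0.21 at Mirg, and the interval of Mirg is too wide to place it apart from Rian. Among Meg3 transcripts, NR_003633 had 41.1 FPKM in the mutant library against 65.1 in the control library, NR_027652 had 14.4 against 20.3, and NR_027651 had 5.80 against 18.7. The minor transcript NR_046475 was at 0.653 in the mutant library against 0.458 in the control library. Rtl1, a paternally expressed gene derived from a retrotransposon, had 0.148 FPKM in the mutant library and 0.216 in the control library. Dlk1, which encodes a membrane protein related to Notch ligands, had 0.257 FPKM in the mutant library and 0.111 in the control library. Both were below 1 FPKM and rested on few fragments: Rtl1 stood at 68.6% of its control level (46.7 to 100.5) and Dlk1 at 231% (109 to 540). From the list of other imprinted genes, the paternally expressed deiodinase gene Dio3, in the wider domain, had 2.24 FPKM in the mutant library, 112% of its control level, and Begain, at the other end of the domain, had 35.1 FPKM in the mutant library against 37.1 in the control library. The 57 microRNA rows in the locus were listed at 0 in both libraries, and whether these libraries could capture RNAs this short was not tested.

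Peg3 and Usp29, the divergent pair whose promoter windows share 163 bases, were lower together. Peg3, a paternally expressed zinc finger gene (minus strand of chromosome 7, 6703892 to 6730431), had 19.2 FPKM in the mutant library against 32.7 in the control library, 58.5% of it (57.0 to 60.1). Usp29, a gene of the ubiquitin-specific protease family, had 3.81 FPKM in the mutant library against 5.75 in the control library (66.3%, 62.1 to 70.9). Zim1, a maternally expressed zinc finger gene of the locus, had 0.216 FPKM in the mutant library and 0.512 in the control library (42.2%, 32.5 to 54.5), below 1 FPKM in both. The zinc finger genes and other neighbours around the locus leaned the same way by less: all 6 flanking genes had negative log2 ratios, with a median of -0.16.

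Zdbf2, a paternally expressed zinc finger gene (plus strand of chromosome 1, 63273265 to 63314576), had a low level, with 1.24 FPKM in the mutant library against 2.74 in the control library. That is 45.3% of the control level (41.7 to 49.2). Its transcripts went opposite ways. NM_001267872 had 0.370 FPKM in the mutant library against 2.33 in the control library, and NM_028673 had 0.874 against 0.411. The share of NM_028673 was therefore 70.3% in the mutant library and 15.0% in the control library. Of 15 imprinted genes with several transcripts and at least 1 FPKM in both libraries, Zdbf2 was the one with a share difference of at least 30 percentage points, beside 2.3% of all such genes. Their median largest difference was 7.57 points, against 4.01 over all such genes. Transcripts of a gene share exons, so the split is an estimate by the authors' software. Both Zdbf2 transcripts were matched to the same start site and the same length (12629 bases), so start and length do not tell them apart.

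At the Snrpn-Ube3a locus on chromosome 7, which is homologous to the human Prader-Willi and Angelman region, 4 of 5 measured genes were lower by less than 1.5-fold. Snrpn, which encodes a spliceosomal protein, had 100.4 FPKM in the mutant library against 126 in the control library; its main transcript carried the status LOWDATA in the table. Snurf, the upstream reading frame of the same transcription unit, had 5.85 against 7.62, and its 216 exonic bases all overlap Snrpn. Ube3a, a maternally expressed ubiquitin ligase gene, had 16.2 FPKM in the mutant library against 19.6 in the control library. An antisense transcript, Snhg14, overlaps 1803 of its exonic bases, so fragments of the pair cannot be assigned separately unless strand was used. Mkrn3, a ring finger gene, had 6.55 FPKM in the mutant library against 7.13 in the control library, and the necdin gene Ndn went slightly the other way with 149 against 136. Magel2, a relative of Ndn, had 0.524 FPKM in the mutant library and 0.696 in the control library, and Peg12 had 0.590 and 0.332; neither reached 1 FPKM. Of 5 other measured transcripts within the interval, 4 had negative ratios. A330076H08Rik had 1.80 FPKM in the mutant library against 3.75 in the control library, A230057D06Rik had 2.35 against 3.56, and Ipw had 2.98 against 3.96. C230091D08Rik had 8.80 FPKM in the mutant library against 9.29 in the control library and D7Ertd715e had 9.38 against 9.30, both close to level. The flanks leaned lower here too: all 6 flanking genes, which lay 634 to 2997 kb away, had negative ratios. Their median log2 ratio was -0.39, which is lower than the median of the locus's own 5 genes.

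The Nap1l5, Impact and Grb10-Ddc loci, each with a lower sum, had 1 measured gene each, and at the Zrsr1-Commd1 locus the genes went opposite ways. Nap1l5, a paternally expressed gene of the nucleosome assembly protein family, had 118 FPKM in the mutant library against 164 in the control library, 71.9% of it (70.1 to 73.7). Its host gene Herc3 had 116 against 131, so Nap1l5 was at 1.02 times its host in the mutant library and 1.26 times in the control library. Impact, a paternally expressed regulator of translation on chromosome 18, had 32.7 FPKM in the mutant library against 45.2 in the control library (72.3%, 70.0 to 74.7). Grb10, an adaptor of insulin and growth factor receptors, had 16.8 against 21.6. Ddc, the dopa decarboxylase gene beside it, had 0.433 FPKM in the mutant library and 0.459 in the control library. Zrsr1, a paternally expressed splicing factor retrogene inside Commd1, had 13.8 FPKM in the mutant library against 17.6 in the control library. Its host Commd1, a gene of copper handling and transcriptional control, had 85.0 against 72.9, and the sum of that locus was higher in the mutant library, at 109% of the control. Zrsr1 and Commd1 exons overlap by 412 bases on opposite strands, and the ratio of Zrsr1 to its host was 0.162 in the mutant library and 0.241 in the control library.

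Several genes lay close to their control level. Gnas, the stimulatory G protein alpha subunit gene and the most abundant of the 48, had 617 FPKM in the mutant library and 651 in the control library, nearly all of it in transcript NM_201616 (603 and 637). The Gnas sum therefore says little about transcripts from other starts of the gene. Of these, NM_019690 had 6.55 FPKM in the mutant library and 7.54 in the control library, and NR_003258 had 6.61 and 5.69. Plagl1, a zinc finger transcription factor gene, had 6.18 FPKM in the mutant library and 5.97 in the control library. Inpp5f, an inositol phosphatase gene, had 17.4 and 18.9. H13, the signal peptide peptidase gene, had 23.8 FPKM in the mutant library and 25.1 in the control library, and the retrogene Mcts2 within it had 15.0 and 13.7. The Kcnq1ot1 locus was also level. Its growth-restraining kinase inhibitor gene Cdkn1c had 25.3 FPKM in the mutant library and 23.1 in the control library, and Tssc4 had 21.8 and 21.2. Its long non-coding RNA Kcnq1ot1, below 1 FPKM but long enough to rest on many fragments, had 0.293 FPKM in the mutant library and 0.342 in the control library (85.6%, 79.7 to 92.0). At the Peg10-Sgce locus, the epsilon-sarcoglycan gene Sgce had 13.3 FPKM in the mutant library and 14.0 in the control library. The retrotransposon-derived gene Peg10 had 2.51 and 2.37, and the neurabin gene Ppp1r9a, whose product binds actin at synapses, had 18.6 and 21.8, or 85.7% of the control level (83.3 to 88.1). Phlda2, a placental growth gene, was listed at 0 in both libraries, and Slc22a18, Asb4 and Calcr had at most 0.113 FPKM in either; these 4 had no transcript that passed the authors' minimum for a test.

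By locus, the summed FPKM was lower in the mutant library at 13 of 19 loci and higher at 6, and none passed the 2-fold rule with 1 FPKM added. The H13-Mcts2 sum, counted as lower, was level. The Zdbf2 sum passed the rule with 0.1 FPKM added, at -1.08 on the log2 scale, and the Mest-Copg2 sum passed it in the other deposited table, at 1.02. The highest sums relative to the control library were Mest-Copg2 at 187%, H19-Igf2 at 148% and Nnat-Blcap at 127%. The lowest were Zdbf2 at 45.3%, Peg3 at 59.4% and Dlk1-Meg3 at 62.3%. Loci thus moved in both directions, and genes of a locus did not always move together: Mest and Copg2 differed in size, and the nested pair of Zrsr1 and Commd1 differed in sign. Of the other nested or antisense pairs, Mcts2 stood at 0.631 times H13 in the mutant library and 0.544 times in the control library, and Airn at 0.478 times Igf2r in the mutant library and 0.550 times in the control library. Kcnq1, the antisense partner of Kcnq1ot1, was below 1 FPKM like Kcnq1ot1 itself, with 0.440 FPKM in the mutant library and 0.446 in the control library.

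**Figure D3:**
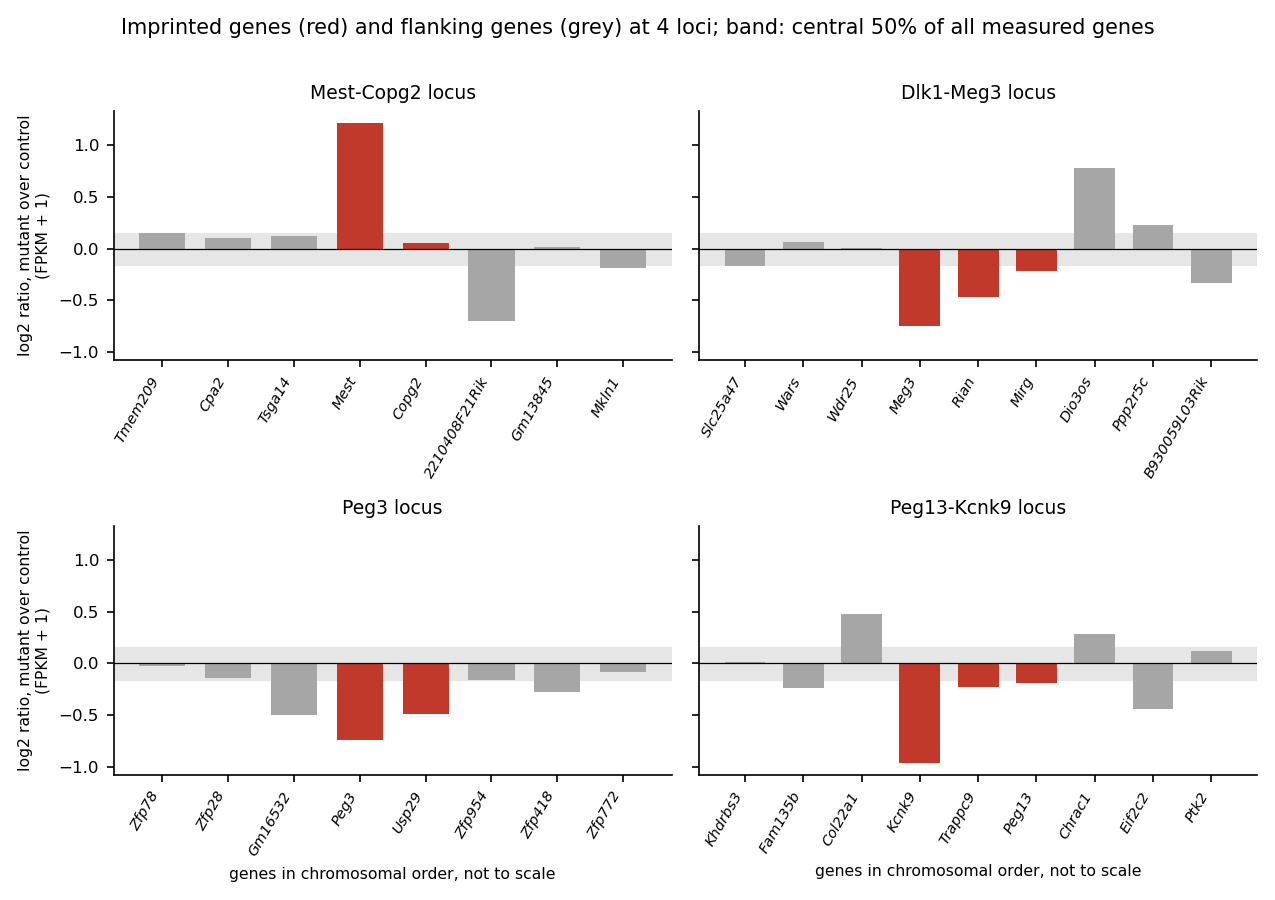
Log2 ratios of mutant over control (FPKM + 1) for the measured imprinted genes (red) and up to 3 measured genes on each side (grey) at 4 loci, in chromosomal order and not to scale; the band spans the quartiles of all measured genes, -0.16 to 0.15. Mest stands at 1.22 beside Copg2 at 0.05, the ratios at Dlk1-Meg3 run -0.74, -0.47 and -0.21, and all genes around Peg3 are below 0.

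Grouped by the parental copy they are expressed from, the genes overlapped widely in their ratios. Of 24 paternally expressed genes 19 were measured, with a median log2 ratio of -0.19 and a range from -0.74 (Peg3) to 1.22 (Mest). Of 12 maternally expressed genes 8 were measured, with a median of -0.24 and a range from -0.97 (Kcnk9) to 1.12 (H19). Each class thus held 1 gene past the 2-fold rule, on the higher side, beside 1.84% of all measured genes. The 12 genes known to be imprinted in part or in some tissues only, such as Blcap, Gnas and Grb10, had the narrowest range of the 3 classes: 10 were measured, from -0.35 to 0.22, with a median of -0.08. Of 16 paternally expressed genes whose promoter or first intron lies in a germline-methylated stretch, 15 were measured. Mest was the only 1 of these 15 past the 2-fold rule, beside 1.84% of all measured genes higher and 0.648% lower. Their median was -0.21, with 10 of 15 below 0, against 50% of all measured genes.

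**Figure D4:**
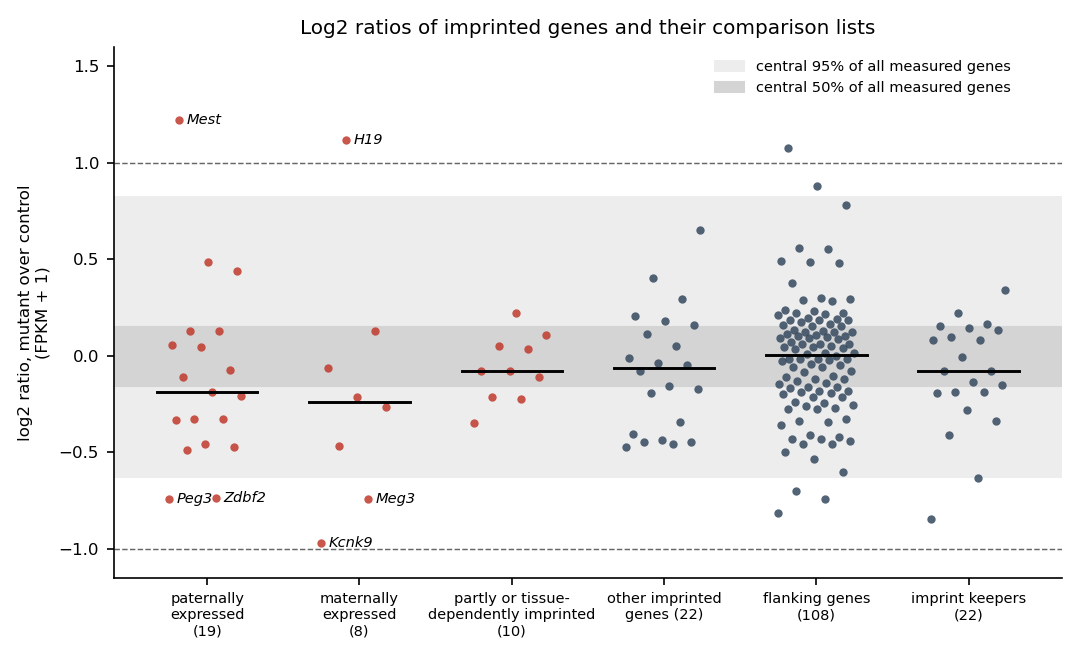
Log2 ratio of mutant over control (FPKM + 1) for each measured imprinted gene by class (red) and for comparison lists (blue-grey), with black bars at the medians, dashed lines at 2-fold and shaded bands for the central 50% and 95% of all measured genes. Mest and H19 lie above the upper dashed line, Kcnk9 sits just above the lower one at -0.97, and the medians of the red groups lie between -0.24 and -0.08.

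Genes around the loci centred on 0. The 108 distinct measured genes that lie nearest to the loci, up to 3 on each side, had a median log2 ratio of 0.00. Their distances ran from 0.016 kb (Mcmbp beside Inpp5f) to 4933 kb (Plek beside Grb10-Ddc). At 2-fold 1 was higher, beside 1.84% of all measured genes, and none was lower, beside 0.648%. The higher one was Samd9l beside Peg10-Sgce, with 2.59 FPKM in the mutant library against 0.702 in the control library. Dio3os, an antisense RNA in the wider Dlk1-Meg3 region that is counted among the 108, had 5.96 FPKM in the mutant library against 3.06 in the control library. Eif2c2, an older symbol of the imprinted gene Ago2 and counted among them under that symbol, had 13.3 against 18.5. Of 10 measured genes inside the loci, the paraoxonase gene Pon1 passed the 2-fold rule on the lower side, beside the same 0.648% of all measured genes. Pon1 had 0.0523 FPKM in the mutant library against 1.94 in the control library. Another list of 47 imprinted genes, not among the 48, had 22 measured, with a median of -0.06. None of the 22 passed the 2-fold rule, beside 1.84% of all measured genes higher and 0.648% lower. The furthest of these from 0 were Pon2 (38.5 FPKM in the mutant library against 24.2 in the control library), Ampd3 (3.20 against 4.82), Osbpl5 (9.97 against 14.1) and Pde4d (6.94 against 9.84).

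Most genes whose products set, keep or remove imprints stood near their control level. Of 30 such genes 22 were measured, with a median log2 ratio of -0.08. None of the 22 passed the 2-fold rule, beside 1.84% of all measured genes higher and 0.648% lower. Zfp57, which protects methylated imprints in the embryo, had 3.81 FPKM in the mutant library against 4.51 in the control library. Its partner Trim28 had 76.6 against 68.2. Beside Dnmt1 and Dnmt3a, the largest ratios were those of the progesterone receptor gene Pgr, which the list holds although it is not known for a part in imprinting, with 0.583 FPKM in the mutant library against 1.10 in the control library, and of the histone demethylase gene Kdm1b, with 7.84 against 5.97.

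In the authors' deposited table, Cuffdiff tested 73 transcripts of the 48 genes and called none significant at a q-value of 0.05, beside 0.353% of all 19556 tested transcripts. Of these 73 in the authors' deposited table, 4 had an unadjusted p-value under 0.05. The lowest q-value in the authors' deposited table was 0.0841 for Mest NM_008590, followed by 0.393 for Zdbf2 NM_001267872, 0.739 for H19 and 0.767 for Peg3. Those values come from 1 library per genotype, so they carry no measure of variation between animals.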

How the data were processed

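RNA from dissected retinas at postnatal day 15 was sequenced as 1 triple mutant and 1 control library, grouped by genotype label. The submitters' processing notes name TopHat2 2.0.8, Cuffdiff 2.1.1 and the mm10 build. The read layout, the strand setting and the transcript annotation were not given in the sources used here. Per the file headers, the authors deposited FPKM per RefSeq transcript in 2 tables, with and without gene symbols. The authors also deposited a log2 fold change, a test statistic, a p-value, a q-value and a status per transcript, per the file headers.

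From the table that carries symbols, FPKM was added up over all transcripts of each gene (Python 3.11.15, pandas 2.3.3), for genes with at least 1 transcript of status OK and none failed (15318 of 23356 symbols). Measured meant at least 1 FPKM in at least 1 library (13280 genes). Log2 ratios used a pseudocount of 1 FPKM, and a ratio of at least 1 either way passed the 2-fold rule. With 1 library per group no test was run. The planned design was kept. To recover depth, low values were compared with multiples of a shared step; to within 10% of it, 190 of 271 values in the mutant library (70.1%) and 190 of 252 in the control library (75.4%) were whole, over transcripts of at least 3000 bases; a fragment length of 150 bases gave fragment counts, and exact binomial intervals of 95% cover counting error only. Rian, Airn and Snurf got no interval for want of a reliable transcript length, and none is printed for Meg3. Coordinates are from GENCODE M21 on GRCm38. The counting steps were tested on simulated data. The alternatives were other pseudocounts, other limits on low values, centring, a 1.5-fold rule and the other deposited table. The imprinted genes and every list (loci, parental classes, germline-methylated promoters, nested pairs, imprint keepers, other imprinted genes, cell type markers) were chosen with earlier results of these data known. Each measured gene was named, and up to 4 of each other list with the largest ratios; Samd9l, Dio3os, Eif2c2, Pon1, Herc3, the non-coding transcripts near Snrpn, Zfp57 and Trim28 were named after their values were seen. Printed promoters were those of up to 5 measured genes of the germline-methylated list with the largest ratios.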

Additional observations from a re-analysis of the deposited data

How the results depend on the processing

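The count of imprinted genes 2-fold higher was 2 as reported and 1 with a pseudocount of 5 FPKM or with a limit of at least 5 FPKM, since H19 was then at 0.41 on the log2 scale or left out. The count 2-fold lower was 0 as reported, 2 with a pseudocount of 0.1 FPKM (Kcnk9 at -1.13 and Zdbf2 at -1.08) and 4 at the 1.5-fold rule. For the genes with a promoter or first intron in a germline-methylated stretch, the median log2 ratio was -0.33 at a limit of 5 FPKM. That limit left 13 genes. Flanking genes higher numbered 3 with a pseudocount of 0.1, 0 with a pseudocount of 5, 0 at a limit of 5 FPKM and 3 at 1.5-fold. Flanking genes lower numbered 1 with a pseudocount of 0.1 and 4 at 1.5-fold. The flanking and transcript-share alternatives were added after seeing the data. In the other deposited table, whose ratios over all genes were shifted by 0.05, Mest had 107 FPKM in the mutant library against 41.0 in the control library (log2 ratio 1.37), and Copg2 had 31.1 against 26.6. A pseudocount cannot change the sign of a ratio, and the median used for centring was only -2.0e-06. In the other deposited table no measured imprinted gene changed sign, and 1 locus sum, H13-Mcts2, did. The ratios of 15 measured genes moved in it by more than their counting error, and 7 locus sums moved by more than 0.06. Mest-Copg2 passed the 2-fold rule there (1.02), and the Zdbf2 locus did with a pseudocount of 0.1 (-1.08). No paired analysis was possible because there was 1 library in each group, and leaving out a library was not possible for the same reason. Genes under 1 FPKM were left out of the counts.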
